A study of Homo sapiens with 12 samples.

Results

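The RAB proteins are small GTPases of the RAS superfamily that give membranes of the secretory and endocytic pathways their identity. A RAB is switched on by an exchange factor, which loads it with GTP, and then recruits effectors that bud, move, tether or fuse vesicles. A GTPase-activating protein switches it off, and GDI withdraws it from the membrane by its prenylated tail. In endothelium, RABs are best known for receptor recycling and for the Weibel-Palade body, the rod-shaped granule that stores von Willebrand factor, P-selectin and angiopoietin 2.

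RAB genes were taken by name, as every gene symbol that consists of RAB, a number and at most 1 further letter, without regard to expression. This gave 64 of the 36433 gene symbols in the deposited table, with 379 transcripts. The material was HMEC-1, an immortalised human line of dermal microvascular endothelium, profiled by RNA-seq. The labels give total RNA as the molecule but also speak of miRNA libraries, whereas the table lists long transcripts, so the kind of library behind the values is not certain. The cells had received synthetic mimics of miR-126, miR-143 or miR-150 at 50 nM, or a non-targeting scrambled RNA at the same dose, with a lipid reagent (Lipofectamine RNAiMAX), and were harvested at 48 hours. Each of the 4 groups held 3 libraries, numbered 2, 3 and 4. All groups therefore share the line, the medium and transfection with a small RNA, and untransfected cells were not analysed here. The series concerns these microRNAs in pathological retinal vessel growth, whereas the cells are a dermal line. Nothing in the labels ties the libraries of a group to different cultures, and p-values therefore reflect library-to-library spread that may be technical.

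Values are TPM, a relative abundance that corrects for transcript length and sums to the same total in every library, so the read depth of each value is unknown. All 12 endothelial markers examined reached 1 TPM in at least 3 libraries, with sums of 1446 to 2878 TPM per library. In miR-143 replicate 4 and miR-150 replicate 4, long transcripts were low relative to short ones. Across 13649 genes, the Spearman correlation of a gene's deviation with its transcript length was -0.399 and -0.548 there, against -0.0084 to 0.289 in the other 10 libraries. Over 49 RABs it was -0.46 and -0.63 in these libraries. The part of these 2 length-shifted libraries in the results was not tested, and values without them are given beside the calls that change. Because the RNA came from bulk cultures, fewer cells with a transcript and less of it per cell cannot be told apart.

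The transfected strands are not spelled out in the labels. The mature 3p strands of miR-126 and miR-143 are shown here because their seeds were later searched for in the RAB 3′ UTRs. Both are from RefSeq on GRCh38.p14, with the seed (bases 2 to 8) in capitals.
hsa-miR-126-3p: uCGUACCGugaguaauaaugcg
hsa-miR-143-3p: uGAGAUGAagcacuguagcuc
The miR-126 strand is encoded at chr9:136670653-136670674 and the miR-143 strand at chr5:149428978-149428998, both on the plus strand. The seeds differ. For miR-150 the name alone is given.

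HMEC-1 cells expressed a broad set of RABs. The mean over the 12 libraries was at least 100 TPM for 12 of the 64 genes, 10 to 100 TPM for 25, 1 to 10 TPM for 10, and under 1 TPM for 17. Together the 64 genes made up 2936 to 3947 TPM of a library, which is 0.294% to 0.395% of it. The 10 most abundant RABs supplied 61.4% to 67.0% of that sum. The sums in replicates 2, 3 and 4 were 3834, 3854 and 3922 TPM with the miR-126 mimic, and 3947, 3775 and 3518 TPM with the miR-143 mimic. They were 3448, 3660 and 2936 TPM with the miR-150 mimic, against 3543, 3640 and 3717 TPM with scrambled RNA. All 3 miR-126 libraries lay above all 3 scrambled libraries, and the lowest sum was that of miR-150 replicate 4.

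**Figure D1:**
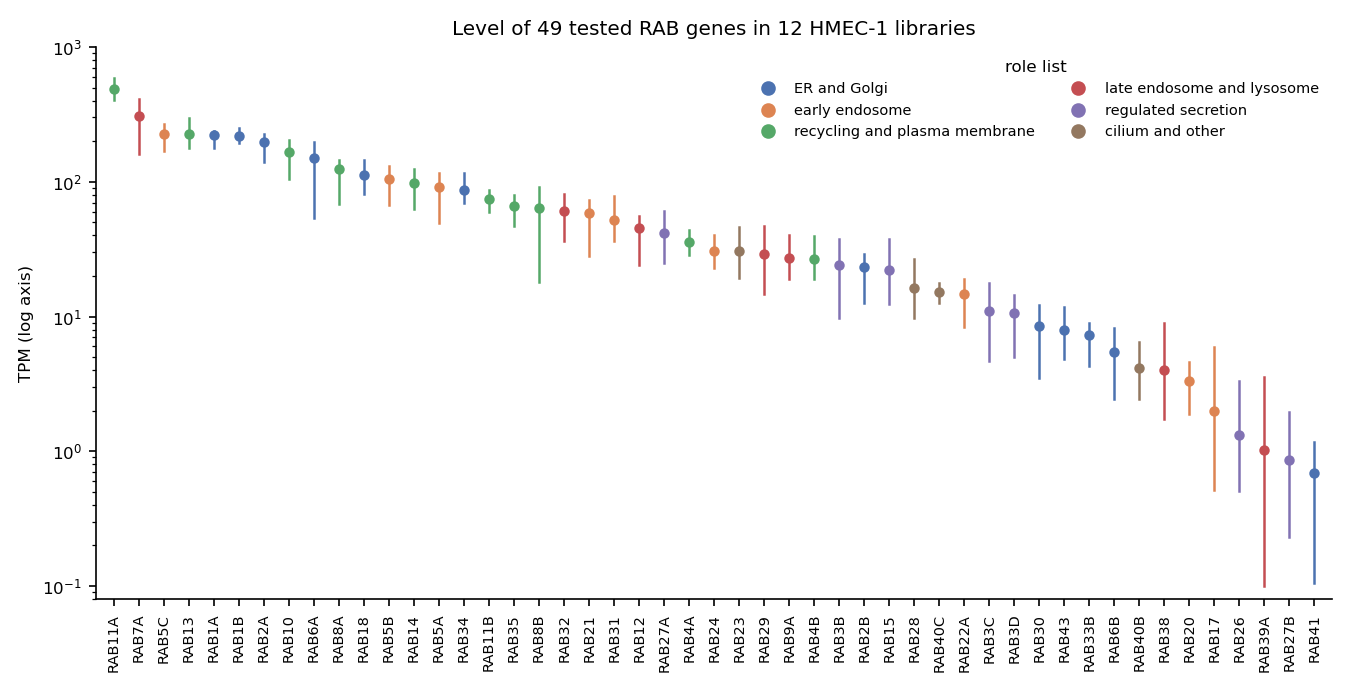
Mean TPM (points, log axis) and the range over 12 libraries (lines) of the 49 RAB genes that were tested, ordered by mean and coloured by role. RAB11A leads with a mean of 487 TPM, and RAB39A, listed at 0 in 1 library, is drawn down to its lowest value above 0.

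A gene was tested where it reached 1 TPM in at least 3 libraries, which 49 RABs and 13750 genes in all did. The 15 RABs below that limit were RAB1C, RAB3A, RAB6C, RAB6D, RAB7B, RAB9B, RAB19, RAB25, RAB33A, RAB36, RAB37, RAB39B, RAB40A, RAB42 and RAB44. Among them are RAB3A, the synaptic vesicle RAB of neurons, and RAB25, the epithelial member of the RAB11 branch. RAB3A averaged 0.811 TPM and RAB25 0.0864 TPM over the 12 libraries. RAB1C is annotated as a processed pseudogene in GENCODE and averaged 0.0464 TPM. Close paralogs such as RAB1A and RAB1B, RAB5A, RAB5B and RAB5C, or RAB6A and RAB6C share coding sequence, so how reads were divided among them is uncertain.

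Against scrambled RNA, few RABs changed. With the miR-126 mimic, RAB3D and RAB17 rose and RAB23 fell. With the miR-143 mimic RAB3D rose, and with the miR-150 mimic RAB3D rose and RAB12 fell. Tests were made with limma on log2(TPM + 1), which understates changes of genes with low values, with Benjamini-Hochberg adjustment over all 13750 genes and a threshold of 0.05. The 3 comparisons share the same scrambled libraries.

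For miR-126, 3 of 49 RABs passed (6.12%), beside 5.11% of all tested genes. For miR-143, 1 of 49 passed (2.04%), beside 3.32% of all genes, and 0 fell. At an unadjusted p under 0.05, 3 RABs were lower and 6 higher with the miR-143 mimic. The share of all genes at that unadjusted limit is not given, so these counts have no background beside them. For miR-150, 2 of 49 passed (4.08%), also beside 3.32%. These shares of RABs lie near those of all genes. The median log2 fold change of the 49 RABs was 0.08 with the miR-126 mimic, -0.02 with the miR-143 mimic and -0.17 with the miR-150 mimic. Over all tested genes these medians were 0.10, -0.04 and -0.11. Most RABs moved little, with 41, 42 and 38 of the 49 within 0.5 of 0 for miR-126, miR-143 and miR-150.

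Many more RABs had groups that did not overlap than passed the test. With the miR-126 mimic, 15 of 49 did not overlap with scrambled RNA, 11 higher and 4 lower, which is 30.6% beside 34.1% of all genes (23.1% higher and 11.1% lower). With the miR-143 mimic it was 14, 8 higher and 6 lower, or 28.6% beside 25.3% (11.4% higher and 13.9% lower). The miR-150 mimic had 21 such RABs, or 42.9% beside 21.5% of all genes. In that comparison 17 were lower, beside 14.6% of all genes, and 4 were higher, beside 6.87%. The 17 lower genes span the pathway, with RAB1A, RAB1B, RAB2A and RAB6A of the ER and Golgi, RAB5A, RAB5B and RAB22A of early endosomes, and RAB9A, RAB12 and RAB32 of late endosomes. Without miR-150 replicate 4, 18 RABs were lower than every scrambled library, beside 17% of all genes. In the same libraries 10 were then higher, beside 17.9%. Only RAB12 of the 17 passed the limma test. Summed markers of fibroblasts and pericytes were 52.0, 43.8 and 40.2 TPM with the miR-150 mimic, against 120, 54.6 and 137 TPM with scrambled RNA, also without overlap. With miR-126 they were 76.7, 56.8 and 78.6 TPM and with miR-143 64.5, 44.2 and 60.6 TPM, both overlapping with scrambled RNA. Of the 10 markers in that list 6 reached 1 TPM in 3 libraries, and PDGFRA, DCN and LUM stayed under 1 TPM in all 12. Taken singly, each of the 6 overlapped between miR-150 and scrambled RNA. COL1A2 was the largest in scrambled replicates 2 and 4, at 64.9 and 80.1 TPM, against 8.65 TPM in scrambled replicate 3. RGS5 was at 9.36, 10.9 and 7.96 TPM with miR-150, against 9.14, 7.44 and 11.3 TPM. The part of fibroblasts and pericytes in the RAB values was not tested.

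Counts in each direction depended on the scaling. When each library was centred on its median gene, the median of all genes moved by -0.14 for miR-126, 0.05 for miR-143 and 0.13 for miR-150 (log2). Genes that passed were then 354 higher and 547 lower with the miR-126 mimic, against 464 higher and 238 lower without centring. For miR-150 they were 245 higher and 337 lower, against 149 higher and 307 lower without it. After centring, 10 RABs lay below scrambled RNA without overlap in miR-150 cells, beside 11.2% of all genes, and 4 above, beside 10.9%. RAB12, RAB6A, RAB5A, RAB5B and RAB22A were among the 10, and RAB1A, RAB1B and RAB2A were not. For miR-126, 7 were higher, beside 13.5%, and 8 lower, beside 20%, and for miR-143, 9 were higher, beside 13%, and 5 lower, beside 12.9%. The median of the 49 RABs became -0.06, 0.03 and -0.04 for miR-126, miR-143 and miR-150, so its sign turned for miR-126 and miR-143. The RABs called against scrambled RNA without centring were called with it as well.

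**Figure D2:**
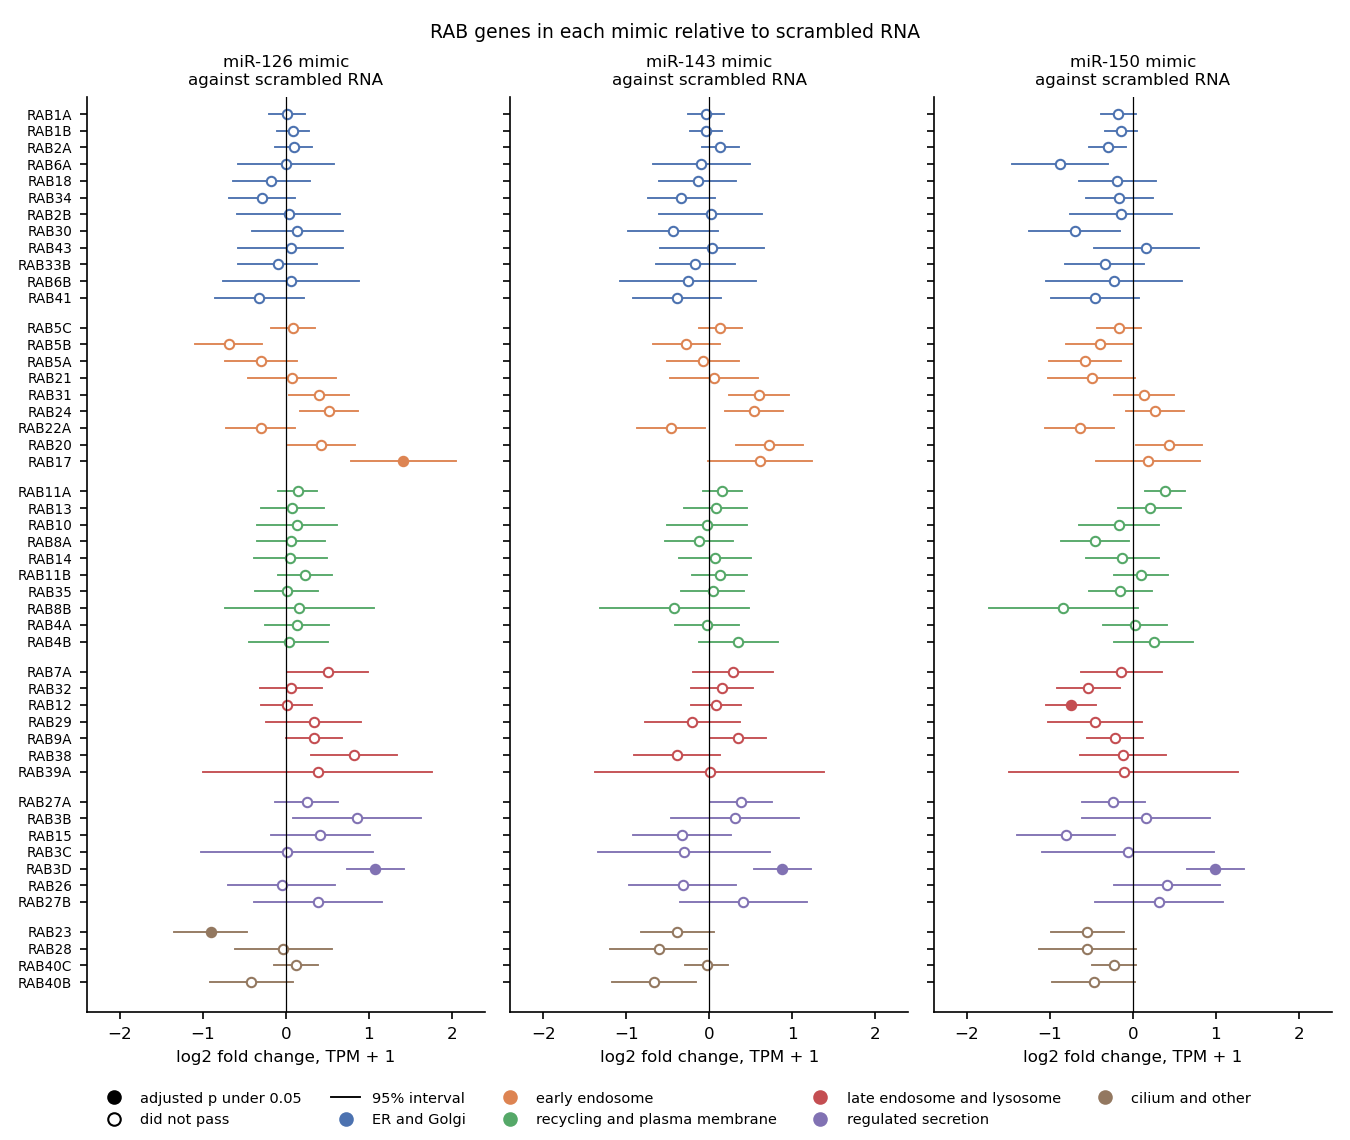
Log2 fold change (horizontal axis, log2 of TPM + 1) of 49 RAB genes with each mimic relative to scrambled RNA, with 95% intervals, grouped by role from the ER at the top. Filled points passed an adjusted p of 0.05, namely RAB17, RAB3D and RAB23 for miR-126, RAB3D for miR-143, and RAB12 and RAB3D for miR-150.

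The RABs of the ER and Golgi numbered 17, of which 12 were tested. RAB1A and RAB1B act between ER and Golgi, RAB2A at the Golgi and in late endosome fusion, and RAB6A in traffic within and from the Golgi. Over the 12 libraries these 4 averaged 222, 220, 196 and 150 TPM. RAB1A was at 231, 230 and 234 TPM with the miR-126 mimic, 213, 239 and 218 TPM with miR-143 and 219, 214 and 178 TPM with miR-150, against 221, 237 and 230 TPM with scrambled RNA. RAB1B was at 242, 220.5 and 251 TPM in miR-126 cells, 215, 209 and 228 TPM in miR-143 cells and 204, 194 and 204 TPM in miR-150 cells, against 230, 208 and 230 TPM with scrambled RNA. In both genes the miR-150 libraries lay just below the scrambled ones, and the other mimics overlapped with them. None of the 12 passed the limma test against scrambled RNA with any mimic. At an unadjusted p under 0.05 all 49 tested RABs together counted 11, 9 and 13 for miR-126, miR-143 and miR-150. Neither the count for these 12 alone nor the share of all genes at that limit is given. With the miR-150 mimic, 1 of the 12 had a fold change above 0 and their median was -0.21, beside -0.11 for all genes. After centring the count was again 1 and the median -0.08, beside 0.02. Their summed level was 803 to 990 TPM with the miR-150 mimic, against 1073 to 1138 TPM with scrambled RNA.

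RAB6A had the widest difference of this set. It stood at 115, 124 and 54.1 TPM in miR-150 replicates 2, 3 and 4, against 159, 166 and 186 TPM with scrambled RNA. Every miR-150 library lay below every scrambled one, and replicate 4 was by far the lowest. The log2 fold change was -0.88 (adjusted p = 0.103, limma with Benjamini-Hochberg). Without the 2 length-shifted libraries it was -0.50 with an adjusted p of 0.0425, so that RAB6A then passed. In the same way RAB2A, at 163, 179 and 140 TPM with the miR-150 mimic, lay below its 192, 190 and 211 TPM with scrambled RNA in every library. That difference of -0.30 did not pass (adjusted p = 0.144).

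The 9 early endosome RABs were all tested. RAB5A, RAB5B and RAB5C direct fusion of endocytic vesicles with early endosomes, and RAB5C was the most abundant of them at a mean of 226 TPM. RAB5C values were 228, 249 and 233 TPM with the miR-126 mimic, 236, 268 and 231 TPM with miR-143, and 201, 231 and 169 TPM with miR-150, against 207, 239 and 224 TPM with scrambled RNA. These groups overlap, and its log2 fold changes were 0.09, 0.13 and -0.16. RAB5B stood at 79.0, 83.3 and 77.5 TPM with the miR-126 mimic, against 128, 128 and 132 TPM with scrambled RNA. The groups are well apart, and the difference of -0.69 missed the threshold (adjusted p = 0.0557, limma with Benjamini-Hochberg). It passed with the replicate number as a block (adjusted p = 0.0148) and without the 2 length-shifted libraries (adjusted p = 0.000707). RAB5B was chosen for mention after its values were seen.

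RAB17 is known in mice and in cell lines as a RAB of polarised epithelia, at recycling endosomes. It was low in HMEC-1, at 2.71, 3.63 and 5.90 TPM with the miR-126 mimic, 1.88, 1.76 and 1.79 TPM with miR-143, and 0.698, 1.46 and 1.19 TPM with miR-150. With scrambled RNA it stood at 1.69, 0.513 and 0.526 TPM. Each miR-126 library was above every library of the other 3 groups. RAB17 rose in miR-126 cells, with 4.08 ± 1.64 TPM against 0.910 ± 0.676 TPM with scrambled RNA (SD, n = 3 each), and the log2 fold change was 1.42 (SE 0.29, adjusted p = 0.0164, limma). The call was lost without miR-126 replicate 4, scrambled replicate 3 or scrambled replicate 4, with an adjusted p of at most 0.0910 in fits without a library.

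The RAB17 sum was spread over 11 transcripts, none with a mean of 1 TPM. Its most abundant transcript held 0% to 69.1% of the gene's TPM, depending on the library. Of 8 epithelial markers, 2 reached 1 TPM in 3 libraries. CDH1, KRT5, KRT14, GRHL2 and ELF3 stayed under 1 TPM in all 12. The summed epithelial markers were 31.3 to 42.0 TPM with the miR-126 mimic, 33.0 to 47.6 TPM with miR-143 and 45.9 to 57.2 TPM with miR-150, against 25.2 to 36.1 TPM with scrambled RNA. Most of that sum was KRT8, a keratin of simple epithelia, at 29.4, 39.6 and 29.5 TPM with miR-126, against 34.3, 34.4 and 24.2 TPM with scrambled RNA. EPCAM, an epithelial adhesion protein, was at 1.83, 0.290 and 1.54 TPM with miR-126, against 1.07, 0.266 and 0.385 TPM with scrambled RNA. Both overlap between these groups. The part of epithelial RNA in the RAB17 values was not tested.

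RABs of recycling and of delivery to the plasma membrane made up the most abundant set, with 11 genes, 10 of them tested. RAB11A, which governs the recycling endosome, was the most abundant RAB of all, with a mean of 487 TPM. RAB13, known for junction assembly and for traffic during endothelial migration, averaged 225 TPM. RAB10 and RAB8A, which carry cargo to the plasma membrane, averaged 167 and 125 TPM. None of the 10 passed the test in any of the 6 comparisons.

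RAB11A stood at 587, 514 and 589 TPM with the miR-150 mimic, against 436, 405 and 448 TPM with scrambled RNA. All miR-150 libraries were higher, and in both groups replicate 3 was the lowest. The log2 fold change of 0.39 missed the threshold (adjusted p = 0.080, limma). With the miR-126 mimic RAB11A was at 491, 422 and 514 TPM and with the miR-143 mimic at 510, 428 and 502 TPM, which overlap with scrambled RNA. The most abundant RAB11A transcript is 635 bases long and held 35.7% to 42.8% of its TPM.

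RAB8A, which works in exocytosis and at the cilium, stood at 106, 128 and 68.4 TPM with the miR-150 mimic, against 135, 128 and 139 TPM with scrambled RNA. The groups just miss overlapping (127.5 TPM in miR-150 replicate 3, against 128.02 TPM in scrambled replicate 3), and the difference of -0.45 did not pass (adjusted p = 0.229). RAB10 overlapped between the groups, at 150, 205 and 105 TPM with miR-150 against 154, 183 and 163 TPM with scrambled RNA. RAB13 overlapped as well, at 232, 204 and 296 TPM against 237, 177 and 218 TPM.

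Late endosome, lysosome and related organelle RABs numbered 10, of which 7 were tested. In this set all 7 fold changes lay above 0 with the miR-126 mimic (median 0.34) and all 7 below 0 with the miR-150 mimic (median -0.22). The medians of all genes were 0.10 and -0.11. After centring on the median gene, 5 of the 7 lay above 0 with miR-126 (median 0.20) and 5 below 0 with miR-150 (median -0.09). Only RAB12 passed against scrambled RNA. The summed level of the set was 537 to 643 TPM with miR-126, 474 to 555 TPM with miR-143 and 270 to 491 TPM with miR-150, against 398 to 496 TPM with scrambled RNA. The miR-126 sums were above all scrambled sums, while the miR-150 sums overlapped with them.

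Most of that sum was RAB7A, the RAB that matures late endosomes and lysosomes. RAB7A was at 355, 414 and 370 TPM with the miR-126 mimic, against 239, 300 and 265 TPM with scrambled RNA. All miR-126 libraries were higher. The log2 fold change of 0.50 did not pass (adjusted p = 0.239, limma), and passed without the 2 length-shifted libraries (adjusted p = 0.0359). RAB7A was at 333, 356 and 293 TPM with miR-143 and at 252, 350 and 161 TPM with miR-150, both overlapping with scrambled RNA.

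RAB12 regulates traffic of the transferrin receptor to lysosomes and binds LRRK2 at damaged lysosomes. It fell in miR-150 cells, to 29.5, 35.3 and 24.2 TPM, against 49.7, 51.9 and 47.9 TPM with scrambled RNA. With miR-126 it was at 53.1, 51.4 and 46.4 TPM and with miR-143 at 54.8, 55.7 and 48.2 TPM. The miR-150 libraries lay below all 9 others, which overlapped among themselves. The mean was 29.7 ± 5.55 TPM in miR-150 cells against 49.8 ± 1.99 TPM with scrambled RNA (SD, n = 3 each), and the log2 fold change was -0.74 (SE 0.14, adjusted p = 0.0146, limma).

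RAB12 also differed between mimics. It was higher with the miR-126 mimic than with miR-150 by 0.75 on the log2 scale (adjusted p = 0.0141), and higher with the miR-143 mimic than with miR-150 by 0.83 (adjusted p = 0.0111). These comparisons share the miR-150 libraries. The call was lost without miR-126 replicate 2 for miR-126 and without miR-143 replicate 2 for miR-143, and both were lost on only the groups compared. Without the 2 length-shifted libraries the fold change against scrambled RNA was -0.61 (adjusted p = 0.0147). The call against scrambled RNA was lost without any single scrambled library, with log2 fold changes of -0.87 to -0.61 over all fits without a library or with another setting. RAB12 lies at chr18:8609437-8639382 on the plus strand (GRCh38) and shares 7.47% of its exonic bases with a gene on the other strand.

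The main RAB12 transcript held 97.3% to 99.8% of the gene's TPM in 11 libraries and 22.3% in miR-150 replicate 2. In that library the main transcript was listed at 6.59 TPM, while the gene sum of 29.5 TPM was within the range of the other miR-150 libraries. The sum is therefore the value to read for this gene.

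RAB38 serves the biogenesis of melanosomes and other lysosome-related organelles together with RAB32. It stood at 7.21, 4.89 and 8.99 TPM with the miR-126 mimic, at 2.30, 1.73 and 3.31 TPM with miR-143 and at 3.36, 3.11 and 2.82 TPM with miR-150, against 3.76, 3.82 and 2.83 TPM with scrambled RNA. The miR-126 libraries were above all others. RAB38 was higher with the miR-126 mimic than with miR-143, at 7.03 ± 2.06 TPM against 2.45 ± 0.802 TPM (SD, n = 3 each; log2 fold change 1.21, SE 0.24, adjusted p = 0.0238, limma). This call was lost without miR-126 replicate 2 or 4 or miR-143 replicate 2 or 3, and after centring on the median gene. Relative to scrambled RNA, the 0.82 of the miR-126 mimic missed the threshold (adjusted p = 0.0723) and passed with the replicate number as a block (adjusted p = 0.0301).

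Of the 10 regulated secretion RABs, 7 were tested, and this set held the change that recurred with each mimic. RAB3D marks secretory granules and is found on Weibel-Palade bodies. It lies at chr19:11322046-11346270 on the minus strand (GRCh38). RAB3D stood at 14.5, 11.9 and 12.9 TPM with the miR-126 mimic, at 11.8, 12.02 and 9.99 TPM with miR-143 and at 13.1, 12.4 and 11.2 TPM with miR-150, against 6.46, 5.56 and 5.004 TPM with scrambled RNA. All 9 mimic libraries were above all 3 scrambled libraries, and the mimics overlapped among themselves.

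RAB3D averaged 13.1 ± 1.36 TPM with miR-126, 11.3 ± 1.12 TPM with miR-143 and 12.3 ± 0.960 TPM with miR-150, against 5.68 ± 0.736 TPM with scrambled RNA (SD, n = 3 each). It rose by a log2 fold change of 1.08 for miR-126 (adjusted p = 0.00325), 0.88 for miR-143 (adjusted p = 0.0114) and 0.99 for miR-150 (adjusted p = 0.00570), each with an SE of 0.16 in limma. As the scrambled libraries enter each comparison, these are not independent. Between mimics the differences were 0.20, 0.09 and -0.11 for miR-126 over miR-143, miR-126 over miR-150 and miR-143 over miR-150. None of these passed, with 95% intervals of -0.14 to 0.54, -0.25 to 0.43 and -0.45 to 0.23.

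The calls for miR-126 and miR-150 remained without any single library. The miR-143 call was lost without miR-143 replicate 3 or scrambled replicate 4, with an adjusted p of at most 0.0695. Fitted on the groups compared alone, the miR-143 and miR-150 calls were lost and the miR-126 call remained. At the level of transcripts, 156 RAB transcripts were among 58391 tested. The main RAB3D transcript, ENST00000222120.7, which held 97.1% to 100% of the gene's TPM, rose with miR-126 (log2 fold change 1.07, adjusted p = 0.0295) and with miR-150 (0.99, adjusted p = 0.0463). It was the only RAB transcript that passed against scrambled RNA, beside 0.57% of all transcripts for miR-126 and 0.378% for miR-150. For miR-143, 0 of 156 RAB transcripts passed in limma, beside 0.31% of all, and 7 higher and 3 lower had an unadjusted p under 0.05. The share of all transcripts at that unadjusted limit is not given. In fits that left out 1 library, 0 RAB transcripts passed for any mimic.

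RAB3D shares 24.9% of its exonic bases with other genes, among them TMEM205 on its strand and CCDC159 on the other. Whether counting used the strand is not given in the sources used here. CCDC159 was at 19.8 ± 2.25 TPM with the miR-126 mimic against 9.72 ± 1.57 TPM with scrambled RNA (SD, n = 3 each), and rose (log2 fold change 0.96, adjusted p = 0.0388, limma). CCDC159 did not pass with miR-143 (0.53) or with miR-150 (0.66). With miR-150 it was at 18.1, 12.5 and 17.5 TPM, above the 11.5, 8.51 and 9.15 TPM with scrambled RNA. The miR-143 libraries overlapped with the scrambled ones. TMEM205 did not pass with any mimic, at 0.34, 0.28 and 0.57 for miR-126, miR-143 and miR-150. The CCDC159 call was not examined in other fits, and the part of these neighbours in the RAB3D values was not tested.

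**Figure D3:**
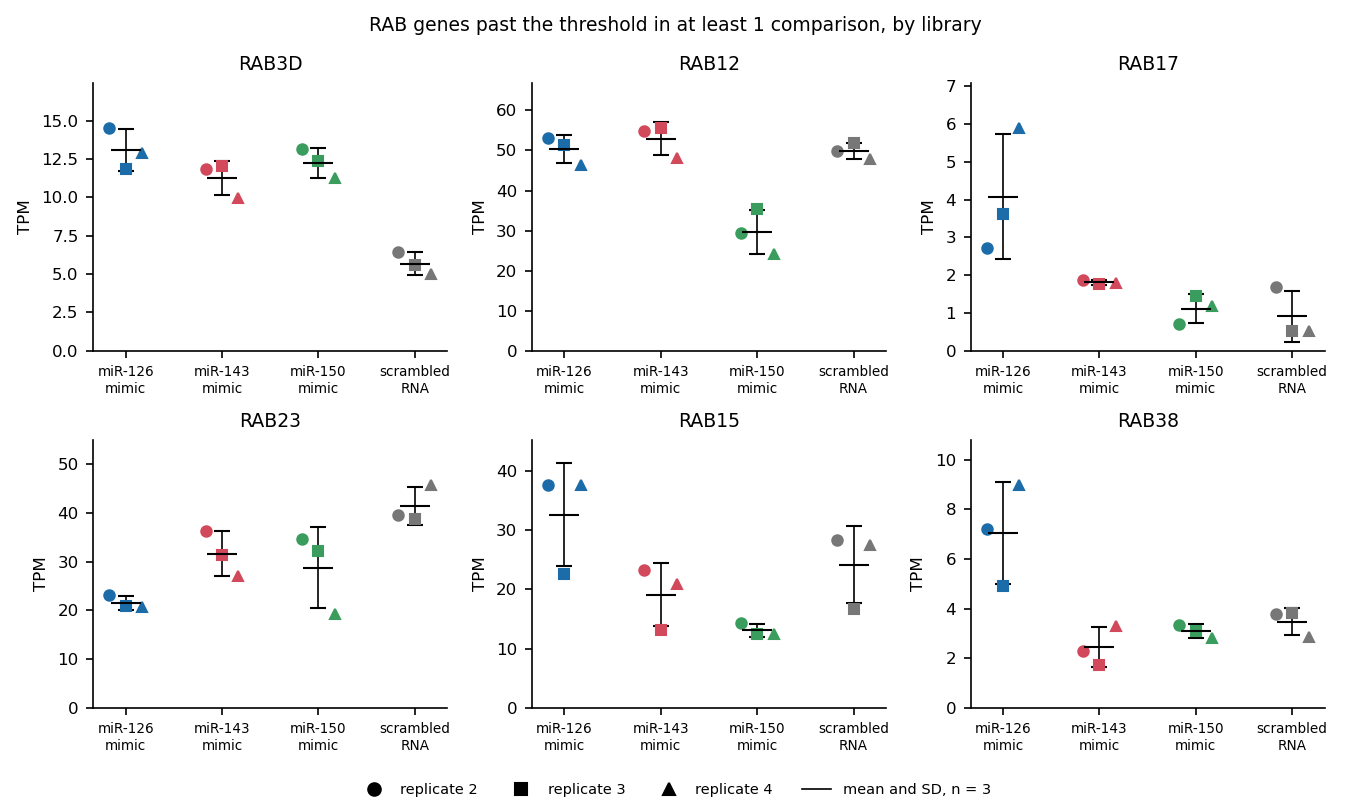
TPM in each library (points, shaped by replicate number) with mean and SD (n = 3) for the 6 RAB genes that passed the threshold in at least 1 of 6 comparisons. RAB3D is above 9 TPM in every mimic library and below 7 TPM in every scrambled one, and RAB12 is lowest in the miR-150 libraries.

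The list of Weibel-Palade body RABs held RAB3B, RAB3D, RAB15, RAB27A, RAB33A and RAB37, of which the first 4 were tested. RAB3D was the 1 of these 4 that passed against scrambled RNA, with each mimic. RAB27A, which anchors maturing Weibel-Palade bodies to actin through MYRIP, was at 41.8, 43.3 and 50.6 TPM with the miR-126 mimic, 60.5, 45.9 and 43.7 TPM with miR-143 and 35.1, 37.1 and 24.9 TPM with miR-150. With scrambled RNA it was at 36.4, 40.4 and 36.5 TPM. The miR-126 and miR-143 libraries were above the scrambled ones and the miR-150 libraries overlapped with them, and its fold changes of 0.25, 0.38 and -0.24 did not pass.

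RAB3B, a further granule RAB of the RAB3 branch, was at 37.4, 28.6 and 33.9 TPM with the miR-126 mimic, against 15.3, 21.1 and 17.4 TPM with scrambled RNA. All miR-126 libraries were higher, and the difference of 0.86 did not pass (adjusted p = 0.199, limma). It passed without the 2 length-shifted libraries (adjusted p = 0.00702). RAB3B has a single transcript, 12844 bases long. In miR-150 replicate 4 it stood at 9.79 TPM, against 27.8 and 28.8 TPM in the other two miR-150 libraries.

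RAB15, known for recycling of receptors and listed here for Weibel-Palade bodies, was at 37.7, 22.6 and 37.7 TPM with the miR-126 mimic, 23.3, 13.1 and 20.9 TPM with miR-143, 14.4, 12.4 and 12.5 TPM with miR-150, and 28.3, 16.7 and 27.5 TPM with scrambled RNA. Replicate 3 was the lowest library in every group, and the miR-150 libraries lay below all scrambled and all miR-126 libraries. RAB15 was higher with the miR-126 mimic than with miR-150 by 1.22 on the log2 scale (SE 0.27, adjusted p = 0.0324). The call was lost without any of 5 of the 6 libraries in turn, miR-126 replicates 2 and 4 and all 3 miR-150 replicates, without the 2 length-shifted libraries together, and after centring on the median gene. Against scrambled RNA the fold changes of 0.42, -0.33 and -0.80 did not pass. RAB33A and RAB37 averaged 0.675 and 0.193 TPM over the 12 libraries and were not tested.

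The content of the granule was examined through 10 cargo genes, 9 of them tested. SELP, which encodes P-selectin, was not tested, at 0 TPM in every library but scrambled replicate 3 (0.0405 TPM). With miR-126, 2 of the 9 passed (22.2%), beside 5.11% of all genes. With miR-150 1 passed (11.1%) and with miR-143 0, each beside 3.32% of all genes. With the miR-126 mimic TSPAN4, a tetraspanin, rose (log2 fold change 0.44, adjusted p = 0.0364) and PLAT, tissue plasminogen activator, fell (-0.79, adjusted p = 0.00920). TSPAN4 also rose with the miR-150 mimic (0.46, adjusted p = 0.0392). The cargo calls were not examined in fits without a library, after centring or under other settings. PLAT stood at 91.8, 82.7 and 92.1 TPM with miR-126, against 158, 129 and 179 TPM with scrambled RNA, without overlap. VWF, the main cargo, was at 28.8, 13.9 and 31.2 TPM with miR-126, 30.7, 13.0 and 27.0 TPM with miR-143 and 35.3, 16.9 and 35.5 TPM with miR-150, against 25.5, 15.9 and 27.3 TPM with scrambled RNA. Replicate 3 was the lowest in each group, and the groups overlap. ANGPT2, which encodes angiopoietin 2, was at 8.08, 21.0 and 10.4 TPM with miR-126, against 1.44, 6.95 and 1.96 TPM with scrambled RNA. These groups do not overlap, and ANGPT2 did not pass. With miR-143 and miR-150 it overlapped with scrambled RNA.

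The last set, of cilium and other RABs, had 6 genes, 4 of them tested. RAB23 is a negative regulator of Hedgehog signalling in mice and acts at the primary cilium. It stood at 23.2, 21.0 and 20.6 TPM with the miR-126 mimic, at 36.3, 31.4 and 27.1 TPM with miR-143 and at 34.7, 32.2 and 19.4 TPM with miR-150, against 39.6, 38.9 and 45.8 TPM with scrambled RNA. All 9 mimic libraries were below the scrambled ones.

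RAB23 fell with the miR-126 mimic, at 21.6 ± 1.43 TPM against 41.4 ± 3.83 TPM (SD, n = 3 each), and the log2 fold change was -0.91 (SE 0.20, adjusted p = 0.0260, limma). The -0.39 and -0.55 of miR-143 and miR-150 did not pass. Leaving out any 1 of the 6 libraries ended the miR-126 call, with an adjusted p of at most 0.123 and log2 fold changes of -1.05 to -0.83 over all alternative fits. It passed without the 2 length-shifted libraries (adjusted p = 0.00122). RAB23 lies at chr6:57186992-57222314 on the minus strand (GRCh38) and shares 57.7% of its exonic bases with BAG2 on the other strand. BAG2 was at 8.80 ± 0.629 TPM with the miR-126 mimic against 8.15 ± 0.470 TPM with scrambled RNA, and did not pass.

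Without a replicate block, comparisons between mimics added few RABs. The larger counts of the blocked fit, which adds a term for the replicate number over all 12 libraries, follow below. For miR-126 over miR-143, RAB38 alone passed of 49, or 2.04% beside 2.52% of all genes. For miR-126 over miR-150, 3 passed, namely RAB12, RAB15 and RAB17, or 6.12% beside 3.91%. For miR-143 over miR-150, RAB12 alone passed, beside 2.19% of all genes. RAB17 was higher with miR-126 than with miR-150, at 4.08 ± 1.64 TPM against 1.11 ± 0.385 TPM (SD, n = 3 each; log2 fold change 1.23, adjusted p = 0.0387, limma), a call lost without any of 5 of the 6 libraries, namely all 3 of miR-126 and miR-150 replicates 2 and 4. It was also lost without the 2 length-shifted libraries (adjusted p = 0.0733) and after centring on the median gene. With centring, RAB5B and RAB23 passed as lower in miR-126 cells than with either other mimic, and RAB12 alone as higher than with miR-150, which makes 0 higher and 2 lower for miR-126 over miR-143 and 1 higher and 2 lower for miR-126 over miR-150.

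Replicate numbers marked a shared deviation, which a blocked fit takes out. Of the comparisons with scrambled RNA, only that of the miR-126 mimic met the condition for pairing. In it only number 3 stood clearly apart. Replicates 2 and 4 correlated across their numbers by 0.27 and 0.292, beside 0.289 and 0.401 within them. With the block, 6 RABs passed there, 4 higher and 2 lower, with RAB24 (0.52, adjusted p = 0.0431), RAB38 and RAB5B added to RAB3D, RAB17 and RAB23, beside 17% of all genes. RAB24 shares 44.8% of its exonic bases with MXD3 on its strand. MXD3 was at 29.4, 10.2 and 25.8 TPM with miR-126, against 19.7, 6.66 and 13.6 TPM with scrambled RNA, and these groups overlap. The part of MXD3 in the RAB24 values was not tested. For miR-126 over miR-150, 15 of the 49 RABs were higher and 1 lower with the block, beside 18.9% of all genes (15.8% higher and 3.06% lower). Among the 15 were RAB7A (0.64), RAB6A (0.88), RAB2A (0.40), RAB1B (0.24) and RAB8A (0.52), and the 1 lower was RAB11A (-0.25, adjusted p = 0.0191). The other 10 higher were RAB9A, RAB12, RAB15, RAB17, RAB21, RAB29, RAB30, RAB32, RAB38 and RAB40C. For miR-126 over miR-143, 4 were higher, namely RAB15, RAB28, RAB29 and RAB38, beside 11% of all genes. For miR-143 over miR-150, 6 were higher (RAB2A, RAB9A, RAB12, RAB21, RAB27A and RAB32) and 2 lower (RAB11A and RAB26), beside 9.75%.

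Leaving out the 2 length-shifted libraries, 8 RABs passed for miR-126 against scrambled RNA, 6 higher and 2 lower, beside 13.3% of all genes. For miR-143 against scrambled RNA, RAB31 (0.64) passed beside RAB3D, beside 5.14% of all genes. For miR-126 over miR-143, 1 was higher and 2 lower, with RAB5B (-0.50) and RAB23 (-0.62) lower in miR-126 cells, beside 4.2%. For miR-126 over miR-150, RAB12 and RAB6A were higher and RAB5B (-0.55) and RAB23 (-0.61) lower, 4 in all beside 5.06%, and RAB15 and RAB17 were lost. For miR-150 against scrambled RNA 3 passed, RAB3D higher and RAB12 and RAB6A lower, beside 4.27%, and for miR-143 over miR-150 RAB12 alone, beside 1.91%.

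Replicate 3 differed from its fellows across groups. It was the highest library of its group in all 4 groups for 10 tested RABs, beside 18.9% of all genes, and the lowest in all 4 for 8, beside 9.43%. The 10 include RAB7A, RAB5C and RAB10, and the 8 include RAB11A, RAB13 and RAB1B. RAB39A, an autophagy-linked RAB, was at 2.18 to 3.54 TPM in the 4 libraries numbered 3 and at 0 to 0.829 TPM in the other 8. RAB3C, a secretory vesicle RAB, was at 16.9 to 17.7 TPM in the 4 libraries numbered 3 and at 4.69 to 10.9 TPM in the other 8. Neither gene passed in any comparison between groups.

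Transcript use varied between RABs. For 36 of the 49 tested, 1 transcript led in all 12 libraries, and for 14 it held over 80% of the gene's TPM in each. In 5 genes, RAB2A, RAB3C, RAB4A, RAB18 and RAB21, the leading transcript is not annotated as protein coding. RAB21, a RAB of integrin traffic, is the clearest case, with 87.9% to 92.2% of its TPM in a retained-intron transcript of 761 bases.

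The machinery that acts on RABs was described through 4 lists with 167 genes, of which 153 were tested. With the miR-126 mimic 2 rose and 2 fell (2.61% of the 153), with miR-143 2 rose and 1 fell (1.96%), and with miR-150 1 rose and 4 fell (3.27%). The shares of all genes were 5.11%, 3.32% and 3.32%. The median log2 fold changes were 0.09, -0.07 and -0.23, beside 0.10, -0.04 and -0.11 over all genes. With the replicate block, 14 rose and 9 fell with the miR-126 mimic, beside 17% of all genes. Without the 2 length-shifted libraries 11 rose and 7 fell in miR-126 cells, 5 rose and 3 fell in miR-143 cells, and 1 rose and 3 fell in miR-150 cells. Of all genes, 13.3%, 5.14% and 4.27% passed in these fits. After centring on the median gene, 1 rose and 8 fell with miR-126, 5 rose and 3 fell with miR-143, and 1 rose and 4 fell with miR-150. Of all 13750 genes, 354 rose and 547 fell, 313 rose and 286 fell, and 245 rose and 337 fell in these fits.

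PRAF2, a membrane protein of the prenylated RAB acceptor family, rose with each mimic. It was at 48.6, 44.8 and 47.1 TPM with miR-126, 52.4, 40.5 and 45.9 TPM with miR-143 and 53.0, 56.3 and 49.2 TPM with miR-150, against 30.1, 30.4 and 30.8 TPM with scrambled RNA. No mimic library reached down to the scrambled ones, which again enter all 3 comparisons. The log2 fold changes were 0.61 (adjusted p = 0.0135), 0.58 (adjusted p = 0.0218) and 0.77 (adjusted p = 0.00476). The miR-126 call was lost without replicate 2 or 4 of either group and after centring on the median gene, and the miR-143 call without any 1 library other than miR-143 replicate 3. The miR-150 call remained without any single library. ARL6IP5, of the same family, fell with the miR-126 mimic, at 119, 95.5 and 109 TPM against 159, 137 and 164 TPM with scrambled RNA (-0.51, adjusted p = 0.0399), without overlap. This call remained in 1 of the 6 fits without a library, that without scrambled replicate 3.

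Among GTPase-activating proteins, 37 of 39 were tested. TBC1D7, which carries the TBC domain of RAB GAPs and is a subunit of the TSC complex, rose with miR-126 and miR-143. It was at 34.3, 31.9 and 35.9 TPM with miR-126 and 39.0, 32.3 and 41.6 TPM with miR-143, against 20.2, 15 and 15.7 TPM with scrambled RNA. The groups are well apart, with log2 fold changes of 0.97 (adjusted p = 0.00879) and 1.11 (adjusted p = 0.00555). The miR-126 call was lost without scrambled replicate 4 and after centring on the median gene, and the miR-143 call remained without any single library. TBC1D14, which binds RAB11 and restrains autophagy, fell with miR-126, at 12.8, 11.5 and 12.6 TPM against 24.9, 22.0 and 28.1 TPM with scrambled RNA (-0.96, adjusted p = 0.0237). Its groups do not overlap, and its call too remained in 1 of 6 fits, that without scrambled replicate 3.

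Of 43 tested exchange factors 1 passed against scrambled RNA. DENND5A, a DENN-domain protein that acts on RAB39, fell with the miR-150 mimic, at 72.02, 66.6 and 58.4 TPM against 108, 110 and 119 TPM with scrambled RNA. The groups do not overlap (-0.77, adjusted p = 0.00676), and the call was lost without scrambled replicate 4. RAB39A itself was under 1 TPM outside the libraries numbered 3.

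The effectors counted 63 tested genes, 3 of which fell with the miR-150 mimic. RUFY1, an effector of RAB4 and RAB14 on early endosomes, was at 60.7, 66.8 and 55.3 TPM against 93.3, 90.2 and 88.6 TPM with scrambled RNA (-0.57, adjusted p = 0.0238). RAB11FIP5, an effector of RAB11, was at 44.1, 49.6 and 37.0 TPM against 63.0, 76.6 and 62.9 TPM (-0.62, adjusted p = 0.0492). MICALL1, which binds RAB8 and RAB35 on recycling endosomes, was at 31.1, 26.6 and 25.6 TPM against 41.0, 39.1 and 44.1 TPM (-0.56, adjusted p = 0.0431). In each, all miR-150 libraries were below all scrambled ones. MICALL1 also fell with the miR-143 mimic, at 31.1, 24.8 and 24.4 TPM (-0.62, adjusted p = 0.0292). Without the 2 length-shifted libraries RUFY1 alone of these fell with miR-150, and after centring on the median gene none of the 3 passed. In fits without a library, the RUFY1 call was lost without miR-150 replicate 2 or any scrambled library, the RAB11FIP5 call without any but miR-150 replicate 3, and the MICALL1 call for miR-150 was lost without any 1 of the 6 libraries. The MICALL1 call for miR-143 remained in 1 such fit, that without miR-143 replicate 2.

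RAB 3′ UTRs were searched for the 7 bases that pair with each seed, on the transcript strand, in the longest annotated 3′ UTR of each gene (GENCODE release 29). Of the 64 RABs, 63 have one. CGGTACG, the match to the miR-126-3p seed, was in 0 of 63, beside 0.298% of the 12422 tested genes with a 3′ UTR. TCATCTC, the match to the miR-143-3p seed, was in 12 of 63 RABs, or 19.05%, beside 14.4%. RAB UTRs were longer, with a median of 2101 bases against 1350 bases for all. These matches are descriptions of sequence and not shown to be sites. The 4 shown carry the match in capitals and belong to RABs of late endosomes (RAB7A), early endosomes (RAB22A) and regulated secretion (RAB27A and RAB15) whose transcripts with the match held most or much of the gene's TPM (80.4%, 96.6%, 41.7% and 94.6% for RAB7A, RAB22A, RAB27A and RAB15), on GRCh38.
RAB7A chr3:128814269-128814291 (plus strand): aaagctttTCATCTCtccagggg
RAB22A chr20:58360219-58360241 (plus strand): aaatgattTCATCTCtgccatct
RAB27A chr15:55204552-55204574 (minus strand): taacttacTCATCTCtatcttta
RAB15 chr14:64948176-64948198 (minus strand): ctctgctgTCATCTCaagcagcc

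The other RABs with the match were RAB6B, RAB21, RAB30, RAB33B, RAB34, RAB40C, RAB42 and RAB43. RAB21 has 2 matches, both in transcripts that held 8.92% of its TPM. Of the 12, 11 were tested and 0 passed with the miR-143 mimic in limma. At an unadjusted p under 0.05, 1 was higher and 1 lower, beside 6 higher and 3 lower of the 49 tested RABs. The median log2 fold change of the 11 with the miR-143 mimic was -0.17, against 0.01 for RABs without the match. Over all tested genes the medians were -0.20 with the match and -0.02 without. The all-gene medians were also lower with the match for miR-150, at -0.18 against -0.10, and were 0.09 and 0.10 for miR-126. The miR-143 and miR-150 groups each hold a length-shifted library, and the part of transcript length in these medians was not tested. With miR-126 the medians of the RABs were 0.07 with the match and 0.08 without, and with miR-150 they were -0.24 and -0.15.

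RAB22A, which sorts cargo at early endosomes, was at 14.5, 13.9 and 11.4 TPM with the miR-143 mimic, against 18.8, 18.03 and 18.9 TPM with scrambled RNA. All miR-143 libraries were lower, by -0.46 on the log2 scale (adjusted p = 0.238), and so were those with miR-126 (-0.30) and miR-150 (-0.64). RAB30, a Golgi RAB, was at 8.98, 6.81 and 5.81 TPM with miR-143, against 9.03, 10.5 and 10.3 TPM (-0.44, adjusted p = 0.420). These groups are just apart. RAB27A and RAB7A, with fold changes of 0.38 and 0.29, were on the other side of 0, and RAB15 (-0.33) overlapped. RAB34 (-0.34), RAB6B (-0.26) and RAB33B (-0.17) were below 0, and RAB40C (-0.03), RAB43 (0.03) and RAB21 (0.06) near it.

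**Figure D4:**
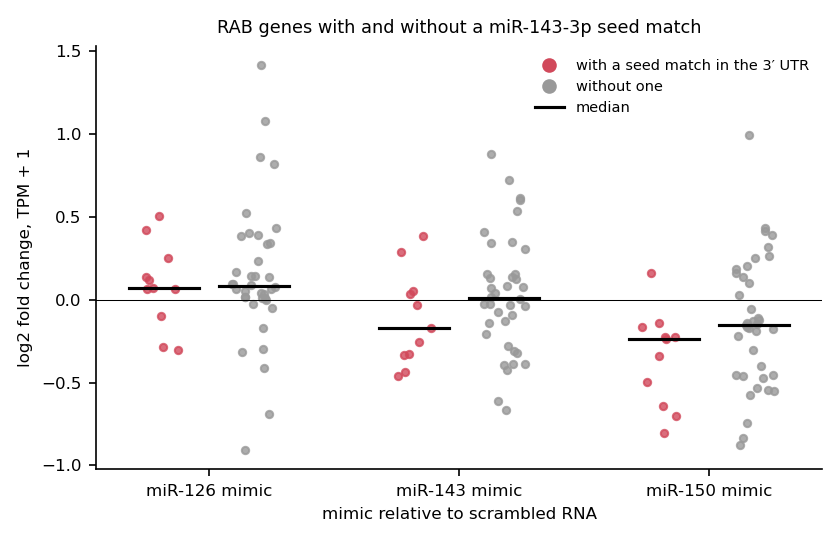
Log2 fold change of tested RAB genes with each mimic relative to scrambled RNA (vertical axis, log2 of TPM + 1), split by a miR-143-3p seed match in the 3′ UTR, 11 with (red) and 38 without (grey), bars at medians. With the miR-143 mimic the median is -0.17 with the match and 0.01 without.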

How the data were processed

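RNA-seq was analysed in 12 libraries of HMEC-1 cells in 4 groups of 3. The authors deposited TPM per transcript, made with kallisto against GRCh38 (hg38), per the submitters' processing notes, which also name FastQC and sleuth. Of tool versions, annotation and strand setting, none is given in the sources used here. The deposited TPM divide by transcript length, so a length bias of a library stays in the values, and depth per library is unknown. No interval for counting error can be given.

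Transcript TPM were added up by gene symbol, and a gene entered the tests when 3 or more libraries reached 1 TPM. On log2(TPM + 1), limma 3.58.1 in R 4.3.3 fitted all 12 libraries with a mean for each group (mean-variance trend, two-sided). Adjustment was by Benjamini-Hochberg within each of 6 comparisons, and the threshold was 0.05. The typical gene had a residual SD of 0.274 (log2). The fit was tested on simulated data. Transcripts were fitted in the same way. Positions and 3′ UTRs came from GENCODE release 29, in which 90.6% of the deposited transcripts were found by identifier.

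Residuals of same-numbered libraries correlated, for numbers 2, 3 and 4, with 0.289, 0.634 and 0.401 in miR-126 against scrambled RNA, 0.321, 0.664 and 0.365 in miR-126 against miR-143, 0.291, 0.547 and 0.284 in miR-126 against miR-150, and 0.586, 0.634 and 0.737 in miR-143 against miR-150. All exceed 0.1, so the numbers were taken to pair these libraries, although no label explains the numbers. The 0.737 is between the 2 length-shifted libraries. The block itself is a term for the replicate number fitted over all 12 libraries. Libraries outside a comparison therefore enter its block as well. In miR-126 against scrambled RNA, replicates 2 and 4 also correlated across their numbers, by 0.27 and 0.292. A pairing of numbers 2 and 4 is therefore not shown there, and only number 3 stands clearly apart.

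The RAB genes, role lists and lists of RAB regulators and cargo were chosen with earlier results of these data known. RABs named with values are those past the threshold in any comparison, the 10 most abundant, the Weibel-Palade body list and those with a seed match. Regulators and transcripts named are those past the threshold against scrambled RNA. A few others are named because leaving out libraries or a block changes their call. Alternatives tried were other pseudocounts, filters, scalings, weights and subsets of libraries, and a replicate block.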

Additional observations from a re-analysis of the deposited data

How the results depend on the processing

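Of 411 recomputed values of the 23 named gene results, 299 kept their direction and their side of the threshold, 112 kept the direction and missed the threshold, and 0 reversed. These values pool fits without 1 library with other settings, some of them nearly alike. Most of the 112 came from the fits without 1 library. The 23 results were named because they passed in these same libraries, so 0 reversals adds no support. Counts of called RABs are given for miR-126, miR-143 and miR-150 against scrambled RNA, then miR-126 over miR-143, miR-126 over miR-150 and miR-143 over miR-150, where the counts in limma were 3, 1, 2, 1, 3 and 1. With a replicate block they were 6, 5, 8, 4, 16 and 8, and with array quality weights 14, 7, 18, 6, 23 and 7, beside 17%, 12.9%, 12.3%, 11%, 18.9% and 9.75% and beside 32%, 11.5%, 23%, 10.9%, 27.5% and 9.43% of all genes. Fitted on only the groups compared, with the spread taken from those libraries alone, they were 8, 0, 0, 0, 0 and 0. All genes called there were 1135 higher and 560 lower, 147 and 133, and 26 and 32 against scrambled RNA. Between mimics they were 102 and 86, 13 and 6, and 1 and 3. Without the 2 length-shifted libraries, the counts that moved by over 1.5 times were 8, 2 and 3 (miR-126 and miR-143 against scrambled RNA, miR-126 over miR-143), beside 13.3%, 5.14% and 4.2% of all genes. With the block as well, an alternative chosen after seeing the data, all 6 were 16, 8, 8, 7, 16 and 9. All genes called were then 2978 higher and 1411 lower, 1269 and 1030, and 789 and 970 against scrambled RNA. Between mimics they were 1361 and 716, 1767 and 688, and 917 and 580, of 13750 tested. Centring on the median gene gave 5, 3 and 4 against scrambled RNA and 2 for both comparisons with miR-143 among mimics, and moved the median of all genes by -0.14, 0.05, 0.13, -0.19, -0.26 and -0.08. All genes called after centring were 354 higher and 547 lower, 313 and 286, and 245 and 337 against scrambled RNA. They were 156 and 282 for miR-126 over miR-143, and 198 and 126 for miR-143 over miR-150. Quantile normalization gave 5 and 3 for miR-126 and miR-143 against scrambled RNA and 3 for miR-143 over miR-150, and no mean-variance trend gave 2 for miR-143. All genes called under quantile normalization were 482 higher and 547 lower, 401 and 363, and 238 and 167 in these comparisons. Without the trend they were 222 and 189 for miR-143. With no filter on low values miR-126 over miR-143 had 0 and miR-126 over miR-150 had 1. Of the 25356 genes then tested, 142 were higher and 103 lower, and 327 higher and 94 lower. A filter at 5 TPM gave 0 for miR-126 over miR-143 and 2 for miR-143 over miR-150. Of the 11023 genes left, 225 were higher and 150 lower, and 234 higher and 91 lower. In fits without 1 library the counts were 1 to 2, 0 to 1 and 1 to 3 against scrambled RNA, and 0 to 1, 0 to 7 and 0 to 2 between mimics. The 7 for miR-126 over miR-150 came without miR-150 replicate 3, beside 604 higher and 113 lower of all 13750 genes. The 0 in that comparison came without miR-126 replicate 2, beside 77 higher and 40 lower. For miR-126, miR-143 and miR-150 against scrambled RNA, called regulators and effectors numbered 4, 3 and 5. They numbered 23, 21 and 19 with the replicate block, 45, 17 and 29 with array weights, 16, 1 and 0 on only the groups compared, and 49, 28 and 17 with the block and without the 2 libraries. The shares or counts of all genes under these settings are given above with the RABs. Without these libraries alone they were 18 and 8 for miR-126 and miR-143, 9 and 8 after centring and 14 and 9 after quantile normalization, and 3 for miR-150 without the trend. All genes called under these settings are again given above, and without the trend they were 133 higher and 290 lower for miR-150. In fits without 1 library, called regulators and effectors numbered 0 to 4, 1 to 2 and 1 to 9. The 9 for miR-150 came without miR-150 replicate 3, beside 148 higher and 405 lower of all genes. The 1 for miR-150 came without scrambled replicate 4, beside 53 higher and 72 lower. Called RAB transcripts numbered 1, 0 and 1. They were 2, 1 and 2 with a filter at 5 TPM and again with the replicate block, 4, 1 and 3 with array weights, and 5, 1 and 0 with the block and without the 2 libraries. For miR-126 and miR-150 they were 3 and 2 after quantile normalization, 2 and 0 on only the groups compared and 0 and 0 without the trend. They were 6 for miR-126 without the 2 libraries and 2 for miR-150 with a pseudocount of 0.1. In fits without 1 library they were 0 to 0 for each mimic. The shares of all transcripts under these alternative settings are not given, so the transcript counts cannot be set against changes in all calls. The causes of these shifts were not tested. For miR-143 and miR-150 against scrambled RNA, same-numbered libraries correlated with 0.0438, 0.65 and 0.174 and with 0.0726, 0.604 and 0.0747, so the numbers were not taken as pairs. There the block called RAB3D, RAB20, RAB24 and RAB31 higher and RAB28 lower with miR-143. With miR-150 it called RAB3D and RAB11A higher and RAB12, RAB15, RAB22A, RAB29, RAB32 and RAB6A lower. In both comparisons replicate 3 correlated best with its own number and replicates 2 and 4 did not. The block changed the call of no other named RAB in the paired comparisons than those given with the results.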

Other observations

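Between mimics, 3 RAB regulators and effectors differed that did not pass against scrambled RNA. They were chosen after their values were seen. MYRIP, which links RAB27A on Weibel-Palade bodies to myosin and actin, was at 10.1, 9.70 and 8.27 TPM with the miR-126 mimic and at 3.63, 4.98 and 1.79 TPM with the miR-150 mimic, without overlap (log2 fold change 1.28, adjusted p = 0.0310, limma). SYTL3, a synaptotagmin-like RAB27 effector, was at 2.78, 3.79 and 2.83 TPM against 1.37, 1.52 and 0.792 TPM in the same comparison (0.90, adjusted p = 0.0387). TRAPPC4, a subunit of the TRAPP exchange factor of RAB1, was lower with miR-150 than with the other mimics, at 119, 106 and 115 TPM with miR-126 and 117, 124 and 131 TPM with miR-143, against 75.4, 69.5 and 92.4 TPM with miR-150. Its log2 fold changes were 0.52 for miR-126 over miR-150 and 0.65 for miR-143 over miR-150 (adjusted p = 0.0335 and 0.0154). With scrambled RNA MYRIP stood at 5.98, 8.62 and 8.28 TPM, above all miR-150 libraries and overlapping with miR-126. TRAPPC4 stood at 98.0, 89.95 and 89.04 TPM with scrambled RNA, overlapping with miR-150 and below all miR-126 and all miR-143 libraries. These 3 of 153 tested regulators (1.96%) stand beside 3.91% of all genes for miR-126 over miR-150. Of the 6 fits without a library, each call for miR-126 over miR-150 remained in 1, with adjusted p of at most 0.144, and the TRAPPC4 call for miR-143 over miR-150 in 3. The SYTL3 and TRAPPC4 calls were lost after centring on the median gene, and the SYTL3 call also without the 2 length-shifted libraries. Without these libraries 3 regulators were higher and 4 lower for miR-126 over miR-150.

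A scan of 16359 sequences of 7 bases in 3′ UTRs, ranked on the differences in these data, put GGTTGTG first, which 10.3% of tested genes carry. Because it was chosen on the same fold changes, it supports nothing about them. Among RABs it occurs in RAB3D, RAB7A, RAB11A, RAB21, RAB27B and RAB31. RAB3D carries it at chr19:11324481-11324503 and chr19:11323775-11323797 (GRCh38, minus strand), both in its main transcript, with the 7 bases in capitals.
RAB3D first: gtttagctGGTTGTGttttaagc
RAB3D second: gtttcagaGGTTGTGtctgctct
The median log2 fold changes of the 6 were 0.40, 0.35 and 0.23 with miR-126, miR-143 and miR-150 against the shared scrambled libraries, and 0.06, -0.03 and -0.19 for the other RABs.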
